A study of Mus musculus with 28 samples.

Results

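Transcripts of 9 RNA processing genes were followed in the whole pituitary glands of 28 mice: the CDC2-like kinases Clk1, Clk2, Clk3 and Clk4, the cold-shock RNA-binding proteins Cirbp and Rbm3, and the serine/arginine-rich (SR) splicing factors Srsf3, Srsf5 and Srsf7. They were taken by name from the 32594 genes of the count table, as genes known to respond to temperature and stress. The choice was made with earlier results of these data known. All 9 were detected in every mouse, and all 9 passed the filter on low counts in every fit. The study asked how sleep loss alters the pituitary response to an acute stress. All mice were of the C57BL/6J strain and 8 weeks old according to the labels, which the study's methods give as the age on arrival. Home cage control mice (4 females, 4 males) had neither challenge. Restraint mice (4 females, 2 males) were held for 20 min in a restrainer and killed 10 min after its end. PSD mice (4 females, 3 males) had 12 h of paradoxical sleep deprivation, in which platforms above water interrupt REM sleep, and were killed about 18 h after its end. PSD + restraint mice (4 females, 3 males) had both. By the study's methods every mouse, controls included, was first accustomed to the platforms daily on 3 days. The labels and the study's methods name no genetic modification of the mice. The platforms also cut into non-REM sleep, so that PSD is not a loss of REM sleep alone.

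CLK kinases phosphorylate SR proteins in nuclear speckles and so release them to the sites of splicing. CLK1 and CLK4 are close relatives whose own transcripts are in part held in the nucleus with introns retained and are spliced to completion when CLK activity drops, as under heat or osmotic stress. CIRBP and RBM3 are small RNA-binding proteins whose transcripts accumulate under mild cooling, and Cirbp follows the daily rhythm of body temperature. SR proteins select exons, and several of them, Srsf3 and Srsf7 among them, limit their own amount through a poison exon. The counts describe transcripts summed over a gene, so that neither the retained introns of Clk1 and Clk4 nor the poison exons of the SR genes can be read from them.

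The smallest library held 14024465 counts, the largest 52948531 and the median library 33389717, and each of the 9 genes had between 610 and 14884 reads in a mouse. The group medians of the totals ran from 19130091.5 in PSD females to 40827136 in restraint females. Hormone genes of the pituitary were abundant in every mouse, with Gh at 59892 CPM or more and Prl at 30866 CPM or more (CPM, counts scaled to library size with TMM factors). Prl was lower in every PSD + restraint female, at 133921 to 155694 CPM, than in any control female, at 159082 to 231705 CPM. In PSD females it ran from 96746 to 170264 CPM, overlapping with controls. In males the Prl values of every challenged group overlapped with those of controls. Male control mouse 1 stood apart in its neurointermediate lobe score (the mean log2 CPM of Pax7, Pcsk2, Oacyl, Rax, Nkx2-1 and Lhx2). The score was 2.24 in this mouse against 4.86 to 5.13 in the other male controls. Some male values of Clk1, Clk4 and Cirbp are also given without this mouse. Srsf7 in PSD males, which overlapped with controls only through it, is not. The mouse was the highest male control for Clk1, Clk4 and Cirbp. Leaving it out therefore raised log2 fold changes above 0 and weakened those below 0. Calls seen only without it rest on this choice. Dixon's outlier test of the 9 genes, in 5 groups each, flagged 0 of 45 sets of values. The summed melanotrope markers (3 of 3 in the table: Pax7, Pcsk2, Oacyl) ran from 1718 to 4220 CPM in PSD females against 1193 to 1819 CPM in control females. The summed forebrain neuron markers (Slc17a7, Tbr1, Neurod2 and Neurod6) were between 13.5 and 63.1 CPM in PSD females against 8.50 to 13.8 CPM in their controls. This sum was almost wholly Slc17a7, with a median of 11.6 CPM over all mice and a highest value of 60.7 CPM. Tbr1, Neurod2 and Neurod6 had medians of 0.124, 0.0812 and 0 CPM, so the range describes Slc17a7 rather than a cell type. The summed corticotrope markers (4 of 4: Pomc, which melanotropes also make, Crhr1, Tbx19 and Avpr1b) were higher in every PSD and PSD + restraint mouse than in any control of its sex, at 70383 to 164633 CPM in PSD females and 70646 to 101599 CPM in PSD + restraint females against 36676 to 68297 CPM in control females. In males they were at 65978 to 101783 CPM after PSD and 66340 to 126323 CPM after PSD + restraint, against 11514 to 63673 CPM in controls. Nearly all of these sums was Pomc, with a median of 69243 CPM over the 28 mice. Tbx19 (median 118 CPM), Crhr1 (20.3 CPM) and Avpr1b (3.48 CPM) were far lower, so the sums do not show how these genes moved. The macrophage markers (5 of 5) of PSD females, at 69.7 to 96.2 CPM, and of PSD + restraint females, at 77.6 to 90.1 CPM, were above the 63.8 to 68.4 CPM of their controls. The pituicyte markers (4 of 4) were at 15.8 to 20.3 CPM in PSD + restraint females and 9.27 to 13.9 CPM in controls. The part of these markers in the results below was not tested, apart from the fits with the neurointermediate lobe score. These are whole glands, so that fewer cells of a type and less RNA per cell cannot be told apart.

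On GRCm38 (GENCODE M21) the genes lie apart on 8 chromosomes. Clk1 occupies chromosome 1, 58410189 to 58424066, on the minus strand. Clk2 lies at 89164795 to 89176921 of chromosome 3 (plus), Clk3 at 57750624 to 57765860 of chromosome 9 (minus) and Clk4 at 51261730 to 51281766 of chromosome 11 (plus). Cirbp lies at 80165985 to 80172786 of chromosome 10 (plus) and Rbm3 at 8138975 to 8145880 of chromosome X (minus). Srsf3 (29032628 to 29043373, plus) and Srsf7 (80200080 to 80207307, minus) share chromosome 17, and Srsf5 is at 80945504 to 80950507 of chromosome 12 (plus). Exons of Clk3 share 1284 bases with Edc3 and exons of Rbm3 share 94 bases with Rbm3os, both on the opposite strand. The libraries were stranded, but the strand setting of the counting is not given in the sources used here, so reads in these stretches may be assigned to either gene.

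RefSeq promoter windows (GRCm38.p6, 250 bases before the transcription start, searched on both strands) were at hand for 7 of the 9 genes, all but Clk1 and Rbm3, and the first listed window of a gene was read. The full cAMP response element TGACGTCA, the palindrome bound by CREB family factors, was found in Clk4 only among these 7, at -65 to -58 from the start, and 1.55% of all 32851 promoters hold it. The shorter TGACG, which also lies within the full element, is held by 17.8% of promoters and was found in Clk2, Clk3, Clk4, Srsf3 and Srsf5. The mild cold response element TCCCCGCC, described for Cirbp, was found in Cirbp at -247 to -240 and in Srsf7 at -44 to -37, and 4.64% of promoters hold it. The heat shock element, searched as GAA, TTC and GAA with 2 bases between each (0.466% of promoters), was in none of the 7. A match is a description of the letters and says nothing on binding. The Clk4 and Cirbp stretches are shown because these 2 genes, beside Clk1, carry the changes described next. Each stretch is the part of its 250-base window around the motif that holds no annotated exon (67 bases for Clk4, 189 for Cirbp). Both lie inside the GENCODE spans of their genes, before a RefSeq start that is downstream of the GENCODE start. Capitals mark the cAMP response element in Clk4 (chr11:51263047-51263113, plus strand) and the mild cold response element in Cirbp (chr10:80167589-80167777, plus strand).
Clk4: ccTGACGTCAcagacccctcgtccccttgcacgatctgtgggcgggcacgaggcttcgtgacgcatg
Cirbp: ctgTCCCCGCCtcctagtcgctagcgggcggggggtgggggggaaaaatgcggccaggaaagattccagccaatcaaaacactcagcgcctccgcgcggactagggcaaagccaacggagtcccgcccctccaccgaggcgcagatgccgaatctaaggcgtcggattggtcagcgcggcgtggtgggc

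Divided by the summed exon length, Srsf5 was the most abundant of the 9, at 66.1 ± 4.19 CPM per kb (SD, n = 28 mice). Cirbp (39.7 ± 5.85 CPM per kb) and Srsf7 (39.4 ± 4.62 CPM per kb) followed at levels that overlap. Clk1 had 19.6 ± 3.12, Srsf3 17.2 ± 1.80, Clk4 15.2 ± 1.40 and Rbm3 13.1 ± 1.61 CPM per kb, and each of these overlaps the next in order. Clk2 (9.33 ± 0.597 CPM per kb) and Clk3 (7.22 ± 0.361 CPM per kb) were lowest, so that Clk1 was the leading CLK kinase per length. The exon lengths include those of transcripts that retain introns, which lowers the values of genes that have them. Between the lowest and the highest mouse, CPM differed most for Cirbp (1.86-fold), Rbm3 (1.72-fold) and Clk1 (1.67-fold) and least for Clk3 (1.22-fold). Within groups, the SD of log2 CPM was lowest for Clk3 at 0.06 and highest for Cirbp at 0.15.

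**Figure D1:**
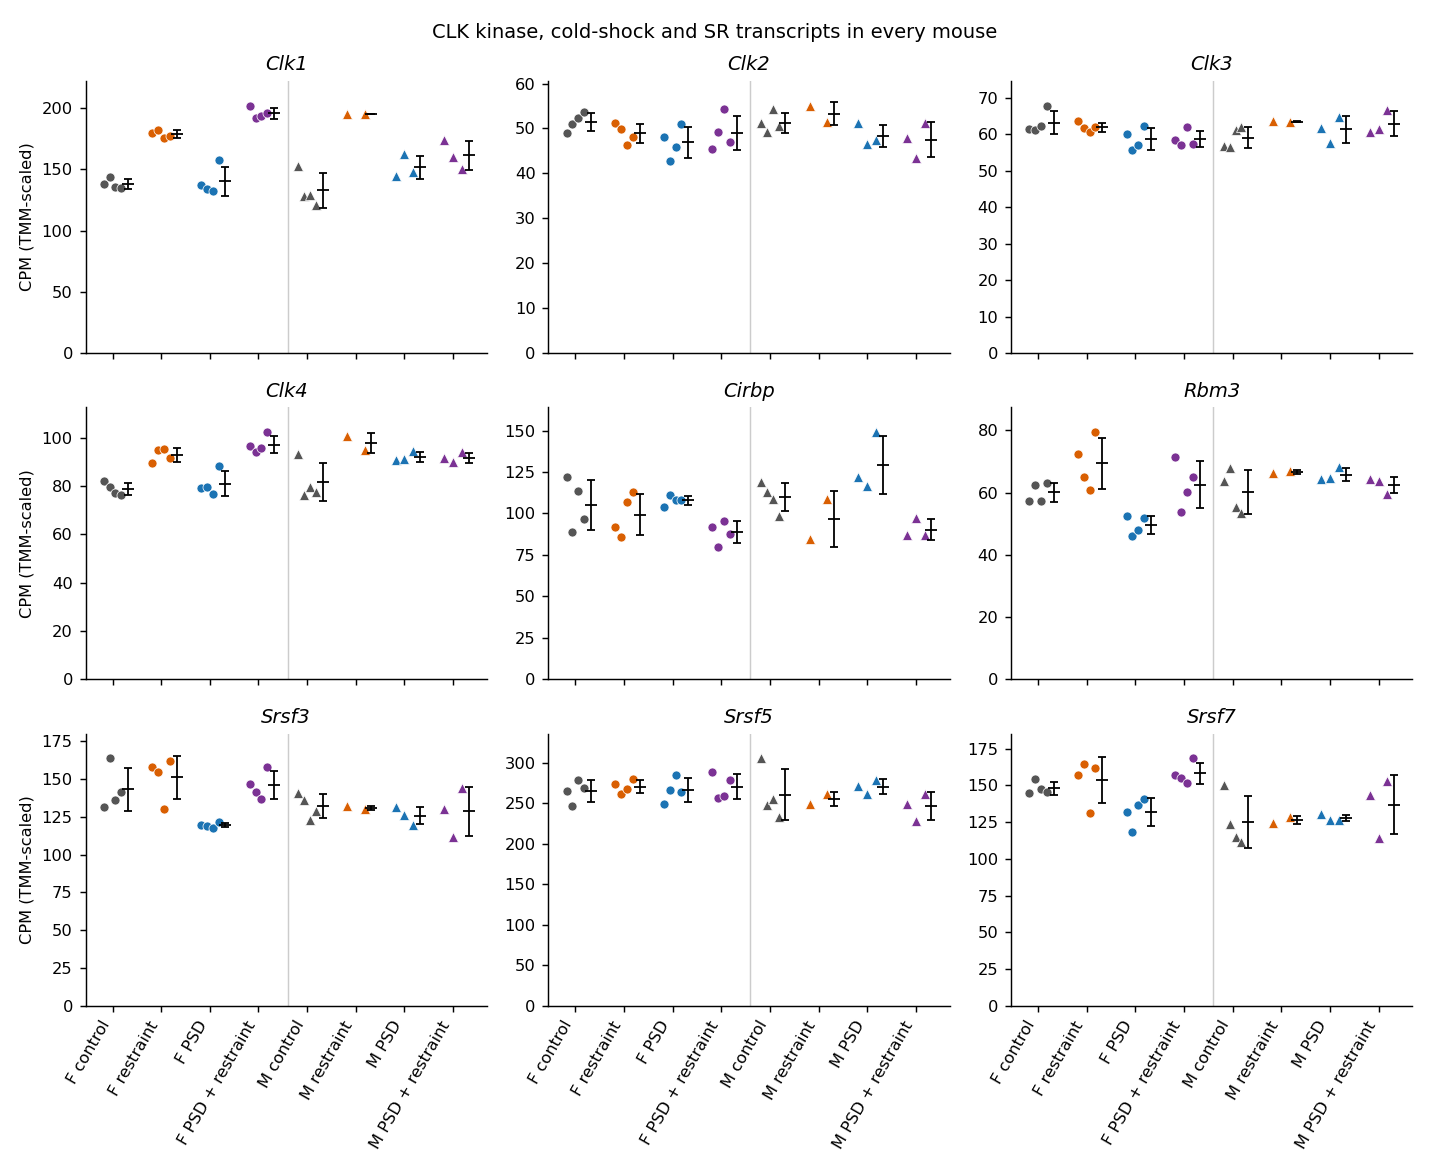
CPM of each of the 9 genes (vertical axes, TMM-scaled, from 0) in every mouse of the 8 groups; circles are females (F), triangles males (M), and the black marks beside the points give the mean ± SD. In females the Clk1 values of the restrained groups, 176 to 202 CPM, lie above all values of the unrestrained groups, 132 to 158 CPM.

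Restraint alone was compared with the home cage to find the genes that answer to an acute stress. Clk1 rose in both sexes and was the only one of the 9 genes called in either. Calls require a Benjamini-Hochberg adjusted p of 0.05 or less from edgeR's quasi-likelihood test together with a change of 1.25-fold or more in either direction, and 0.543% of the genes tested were called in females and 0.296% in males. Clk1 had 138, 144, 135 and 135 CPM in the control females and 180, 183, 176 and 177 CPM in the restraint females. Every restraint female lay above every control, with a log2 fold change of 0.38 (SE 0.05, edgeR adjusted p = 0.00261). Male controls had 153, 128, 129 and 121 CPM of Clk1, and both restraint males had 195 CPM. The male groups did not overlap either, nor did those of 6.34% of genes in this direction, at a log2 fold change of 0.56 (SE 0.09, edgeR adjusted p = 0.0177). The male call was lost when control mouse 2, 3 or 4 or either restraint mouse was left out (adjusted p from 0.0586 to 0.201), while the log2 fold change stayed between 0.51 and 0.56. Without male control mouse 1, the highest control, it was 0.63 and called.

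Clk4, the closest relative of Clk1, was also higher after restraint, by a smaller step. Control females had 82.1, 79.6, 77.3 and 76.3 CPM of Clk4 and restraint females 89.5, 95, 95.1 and 91.5 CPM. The female groups did not overlap, and the log2 fold change of 0.24 (SE 0.05, edgeR adjusted p = 0.0391) passed the test but not the fold limit. The adjusted p exceeded 0.05 when any single control or restraint female was left out, and reached 0.139 without control mouse 3. In males Clk4 had 93.3, 76.3, 79.5 and 77.5 CPM in controls and 101 and 94.7 CPM after restraint, with a log2 fold change of 0.26 (SE 0.08, edgeR adjusted p = 0.453). Control mouse 1 was again the highest male control, and without it Clk4 was called at 0.33 (edgeR adjusted p = 0.0377). In the fit of all mice, with sex as a term, Clk1 rose by 0.44 on the log2 scale (SE 0.06, edgeR adjusted p = 8.74e-05), where 1.14% of the genes tested were called. Clk4 was at 0.25 there (SE 0.05, edgeR adjusted p = 0.00369), past the test and under the fold limit.

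Clk2 and Clk3 did not pass the test after restraint. Clk2 had a log2 fold change of -0.07 (95% interval -0.20 to 0.06) in females and 0.06 (-0.11 to 0.22) in males. Clk3 was at -0.02 (-0.12 to 0.08) in females and 0.11 (-0.04 to 0.26) in males, where both restraint mice lay above all controls. Among the SR genes the log2 fold changes in the 2 sexes ran from -0.03 for Srsf5 in males to 0.09 for Srsf3 in females. Rbm3 had 57.3, 62.5, 57.4 and 63.2 CPM in control females and 72.3, 65.1, 60.8 and 79.5 CPM in restraint females, a log2 fold change of 0.22 (SE 0.09, edgeR adjusted p = 0.431) with overlapping groups. In all, 2 of the 9 genes had restraint females wholly above controls, where 2.76% of genes did, and 3 of the 9 (Clk1, Clk3 and Clk4) had restraint males wholly above controls, where 6.34% did. The median log2 fold change of the 9 was 0.06 in females and 0.06 in males, against 0.01 and -0.00278 over all genes tested.

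**Figure D2:**
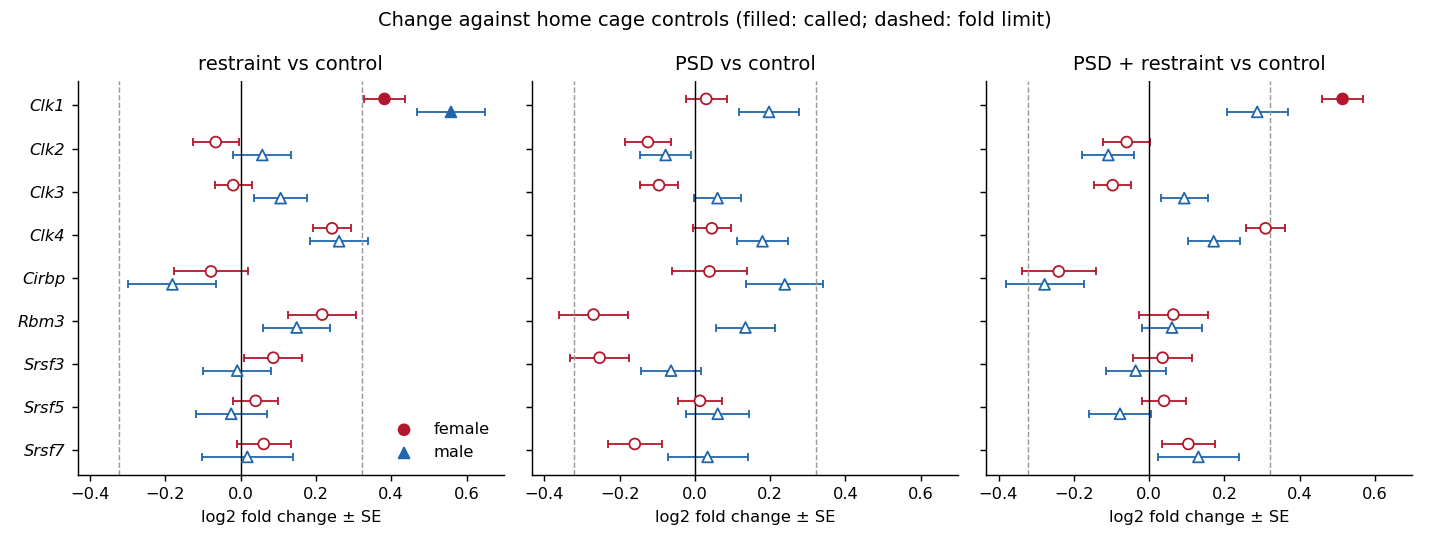
Log2 fold change of each gene against home cage controls of the same sex in the restraint, PSD and PSD + restraint groups, from the edgeR fits by sex, with bars of 1 standard error; filled symbols are called and dashed lines mark the fold limit of 1.25 in each direction. Clk1 is filled in restraint mice of both sexes and in PSD + restraint females, and no gene is filled after PSD.

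PSD alone was compared with the home cage to find what persists after the sleep loss ends. None of the 9 genes was called in either sex or in all mice, where edgeR called 0.0277% of the genes in females, 0.00547% in males and 0.671% in all mice. At an unadjusted p under 0.05 there were 3 of the 9 in females, 3 in males and 3 in all mice, where 19.8%, 8.85% and 17.6% of all genes reached it, and DESeq2 called none of the 9. In females 557 genes were called without PSD mouse 4, but still 0 of the 9. Of the 9 log2 fold changes, 5 were below 0 in females, with a median of -0.10 (all genes 0.01). Srsf3, Rbm3 and Srsf7 had the lowest of them. Srsf3, which promotes exon inclusion and mRNA export, had 132, 164, 136 and 142 CPM in control females and 120, 119, 118 and 122 CPM after PSD. Each PSD female lay below each control, with a log2 fold change of -0.25 (SE 0.08, edgeR adjusted p = 0.136). The cold-shock gene Rbm3 had 52.5, 46.2, 48.0 and 51.7 CPM in PSD females, below the 57.3 to 63.2 CPM of all controls, at -0.27 (SE 0.09, edgeR adjusted p = 0.144). Srsf7 had 132, 118, 137 and 141 CPM in PSD females, also below the 145 to 154 CPM of controls, at -0.16 (SE 0.07, edgeR adjusted p = 0.231). PSD females wholly below controls were seen for 4.78% of the genes tested. In PSD males the same 3 genes overlapped with controls, Srsf7 only through control mouse 1, and Rbm3 was at 0.13 (SE 0.08, edgeR adjusted p = 0.666). The difference between the sexes in the PSD response of Rbm3 was -0.40 (females minus males, SE 0.13), with an unadjusted p of 0.00403 and an edgeR adjusted p of 0.302.

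In PSD males, Clk1 (144, 163 and 148 CPM), Clk4 (90.6, 91.2 and 94.4 CPM) and Cirbp (122, 116 and 149 CPM) had the largest values relative to controls. Their log2 fold changes were 0.20, 0.18 and 0.24, with edgeR adjusted p of 0.517, 0.497 and 0.533. Each overlapped with the controls through control mouse 1, and without that mouse they were at 0.27, 0.25 and 0.28, with none called. Cirbp dropped to 0.12 without PSD male 3, the mouse at 149 CPM. In PSD females Clk1 was at 137, 134, 132 and 158 CPM, and its log2 fold change was 0.03 (95% interval -0.09 to 0.15).

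Restraint after PSD gave the combined response. Clk1 rose in females by more than any other of the 9 genes, to 202, 192, 193 and 196 CPM, and all 4 mice lay above all controls. The log2 fold change was 0.51 (SE 0.05, edgeR adjusted p = 0.000129), in a comparison with 2.2% of genes called. Clk4 followed with 96.5, 93.9, 95.8 and 102 CPM in these females, again above every control (as for 6.82% of genes), at 0.31 (SE 0.05, edgeR adjusted p = 0.00416) and just under the fold limit. It was called at 0.33 without PSD + restraint female 2 and at 0.35 (edgeR adjusted p = 0.0191) with the neurointermediate lobe score in the fit. The score was 5.22 to 5.81 in PSD + restraint females and 4.64 to 5.19 in control females.

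In PSD + restraint males, Clk1 had 174, 160 and 151 CPM, and the lowest of them was under control mouse 1. The log2 fold change was 0.29 (SE 0.08, edgeR adjusted p = 0.0833), and none of the 9 genes was called, where 2.56% of genes were. At an unadjusted p under 0.05 there were 3 of the 9 (17.4% of all genes), and DESeq2 called none. Without control mouse 1, Clk1 was called at 0.36 (edgeR adjusted p = 0.0139). Clk4 had 91.4, 89.9 and 94.0 CPM in these males, at 0.17 (SE 0.07, edgeR adjusted p = 0.220), and overlapped with controls through control mouse 1 only. Without that mouse it was at 0.24 (edgeR adjusted p = 0.0328), and with the neurointermediate lobe score in the fit at 0.27 (edgeR adjusted p = 0.0222), past the test and under the fold limit in both. The difference between the sexes in the PSD + restraint response was 0.22 (females minus males, SE 0.09, unadjusted p = 0.0278, edgeR adjusted p = 0.654) for Clk1 and 0.13 (SE 0.08, adjusted p = 0.771) for Clk4. For Clk1 it was 0.14 without male control mouse 1. Over all mice Clk1 rose by 0.42 on the log2 scale (SE 0.06, edgeR adjusted p = 2.9e-05), where 5.46% of genes were called, and Clk4 was at 0.25 (SE 0.05, edgeR adjusted p = 0.000636).

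Cirbp was lower after PSD + restraint. It had 122, 89.0, 114 and 96.8 CPM in control females and 91.8, 80.0, 95.7 and 87.6 CPM in PSD + restraint females. The female groups overlapped, at -0.24 (SE 0.10, edgeR adjusted p = 0.186). Male controls had 119, 113, 109 and 98.6 CPM and PSD + restraint males 86.7, 97.5 and 86.7 CPM. All 3 of these males were below all controls, by a narrow gap, at -0.28 (SE 0.10, edgeR adjusted p = 0.185), and 8.13% of genes had male groups that lay apart in this direction. Without male control mouse 1, the highest male control, the log2 fold change weakened to -0.24, and Cirbp was again not called. The fit of all mice gave -0.26 (SE 0.08, edgeR adjusted p = 0.0304), past the test and under the fold limit. The adjusted p ran from 0.0140 to 0.0659 as single mice were left out and exceeded 0.05 without female control mouse 1 or 3, PSD + restraint female 2 or PSD + restraint male 1. It was 0.157 at a log2 fold change of -0.21 with the neurointermediate lobe score in the fit.

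Restraint after PSD was also set against PSD alone, a comparison added after the values were seen, to separate what restraint adds in mice that had lost sleep. Cirbp fell, and it was the only one of the 9 genes called over all mice, where 2.01% of genes were called. All 7 PSD + restraint mice, between 80.0 and 97.5 CPM, lay below all 7 PSD mice, between 104 and 149 CPM, a separation that 0.422% of genes had in this direction. The log2 fold change was -0.38 (SE 0.08, edgeR adjusted p = 0.00461), and it stayed called as each of the 28 mice was left out in turn (-0.41 to -0.32). In females alone it was -0.28 (SE 0.10, edgeR adjusted p = 0.271), and in males -0.52 (SE 0.11, edgeR adjusted p = 0.0879), where edgeR called none of the 9 genes (0.285% of all genes were called, and 1 of the 9 and 10.3% of all genes had an unadjusted p under 0.05) and DESeq2 called Cirbp at a shrunken -0.42 (DESeq2 adjusted p = 0.00265). Restraint without PSD gave Cirbp a log2 fold change of -0.11 (95% interval -0.28 to 0.05) over all mice. The interaction of PSD and restraint, which tests this difference, was -0.27 (SE 0.11) with an unadjusted p of 0.0228 and an edgeR adjusted p of 0.9999. No gene was called for the interaction by edgeR or DESeq2, and 743 genes had an unadjusted p under 0.05.

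In PSD females, restraint also moved Clk1, at 0.48 (SE 0.05, edgeR adjusted p = 0.000251), the 1 gene of the 9 called there (0.941% of all genes). Clk4 was at 0.26 (SE 0.05, edgeR adjusted p = 0.0167), under the fold limit. Rbm3 (0.33, SE 0.09), Srsf3 (0.29, SE 0.08) and Srsf7 (0.26, SE 0.07), the genes with the lowest values in PSD females, all had PSD + restraint females wholly above PSD females, with edgeR adjusted p of 0.116, 0.108 and 0.111. These 3 were picked out for their low values in the same PSD females, so that their higher values here are no independent result. Such a separation held for 4.23% of the genes tested. In males the Clk1 log2 fold change of PSD + restraint against PSD was 0.09 (95% interval -0.10 to 0.28). Over all mice it was 0.32 (SE 0.06, edgeR adjusted p = 0.00276), which lies just under the fold limit and was called without PSD female 4, PSD male 2 or 3, or any 1 of the 3 PSD + restraint males (up to 0.36). Against restraint alone, PSD + restraint left Clk1 at -0.02 (95% interval -0.15 to 0.11) and Clk4 at 0.00460 (-0.10 to 0.11). None of the 9 genes was called there, by edgeR or DESeq2, and none had an unadjusted p under 0.05, with 0.0951% of genes called and 13.5% at that p. The pooled Clk1 value joins opposite directions in the sexes. Females had 192 to 202 CPM of Clk1 after PSD + restraint and 176 to 183 CPM after restraint alone. Males had 151 to 174 CPM after PSD + restraint, below the 195 CPM of both restraint males. This comparison was not fitted by sex, and the share of genes that lie apart in it was not counted by sex.

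The counts of the 4 CLK genes within a mouse give the same contrast without any scaling of libraries. In females Clk1 took 40.6% to 42.8% of the CLK counts in controls and 46.5% to 46.9% after restraint. After PSD the share was 42.2% to 43.9%, and after PSD + restraint 47.7% to 50.2%. Both restrained female groups lay above both unrestrained groups. In males the share was 38.9% to 43.2% in controls, 47.1% and 48.3% after restraint, 41.5% to 45.5% after PSD and 41.5% to 46.5% after PSD + restraint. Only the restraint males lay above all controls. The Clk4 share stayed between 22.9% and 26.6% in all 28 mice, and Clk3 and Clk2 made up the rest. Clk1 counts were 2.52 to 2.82 times those of Clk2 in control females and 3.56 to 4.44 times in PSD + restraint females.

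**Figure D3:**
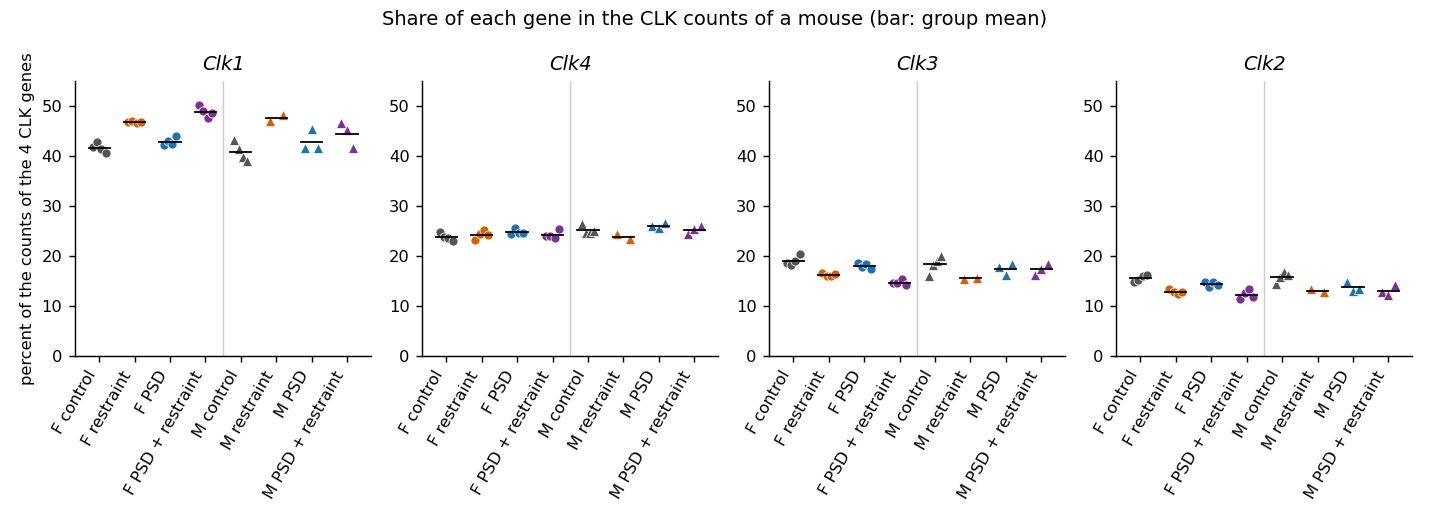
Share of Clk1, Clk4, Clk3 and Clk2 in the summed counts of these 4 genes (vertical axes, percent) in every mouse of the 8 groups, with a bar at each group mean; circles are females (F) and triangles males (M). The mean Clk1 share is 41.6% in control and 48.9% in PSD + restraint females, while the mean Clk4 share stays at 23.8% and 24.2%.

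The ratio of Cirbp to Rbm3 counts, the pair of cold-shock genes, also lay apart between PSD and PSD + restraint mice in both sexes. Cirbp alone already separated these mice, and Rbm3 was picked out for its low values in PSD females. The ratio therefore restates these values and is no independent result. In females it was 1.98 to 2.41 after PSD and 1.29 to 1.59 after PSD + restraint, with controls between 1.43 and 2.13. In males it was 1.80 to 2.18 after PSD and 1.35 to 1.53 after PSD + restraint, with controls between 1.66 and 1.96. Restraint alone gave 1.27 to 1.75 in females and 1.28 and 1.62 in males. The ratio also varied between mice of 1 group, as the control females show, and it was not tested.

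Between the sexes, none of the 9 genes was called, in a comparison where 14.9% of genes were. Srsf7 was higher in females, with 148 CPM on average against 129 CPM in males, at a log2 difference of 0.19 (SE 0.05, edgeR adjusted p = 0.00268), past the test and under the fold limit. Srsf3 was at 0.10 (SE 0.04, edgeR adjusted p = 0.0729). Scaled by library size alone, Srsf7 was at 0.13 (edgeR adjusted p = 0.0556) and no longer past the test, and Srsf3 was at 0.04 (edgeR adjusted p = 0.514). These 2 genes had an unadjusted p under 0.05, as did 43.1% of all genes, and DESeq2 called none of the 9. In the tests of a sex difference in the 3 responses, edgeR called no gene (804, 2038 and 1363 genes had an unadjusted p under 0.05 for restraint, PSD and PSD + restraint), and DESeq2 called 24 genes for PSD and 10 for PSD + restraint, none of them among the 9.

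Mice of 1 group differed from each other in concert for some of the genes. The values of each mouse were set against its group mean, and 36 pairs of the 9 genes were correlated over the 28 mice, with permutation p-values adjusted over these pairs. Srsf3 and Srsf7 were correlated with r = 0.78 (adjusted permutation p = 0.00072) and rho = 0.82 (adjusted permutation p = 0.00108). Without the 2 mice farthest from the median of Srsf3, r was 0.65. Clk2 and Clk3 were correlated with r = 0.68 (adjusted permutation p = 0.0191) and rho = 0.65 (adjusted permutation p = 0.0351), and r was 0.60 without the 2 farthest mice. As each of the 28 mice was left out in turn, this pair passed 26 times, and Srsf3 with Srsf7 passed 28 times. Clk1 and Clk4 had r = 0.68, but the adjusted permutation p was 0.187, and r dropped to 0.30 without the 2 farthest mice, so that it rests on them. Male control mouse 1 is the farthest above its group mean in both. The other 33 pairs did not pass, and 6 of the 36 had an unadjusted p under 0.05. All 9 genes share the libraries and their scaling. Within groups, the neurointermediate lobe score had r = -0.73 with Clk4, -0.63 with Srsf5, -0.60 with Srsf7 and -0.52 with Clk1. For the other genes this r lay between -0.35 and 0.02. The part of the score in the correlated pairs was not tested.

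**Figure D4:**
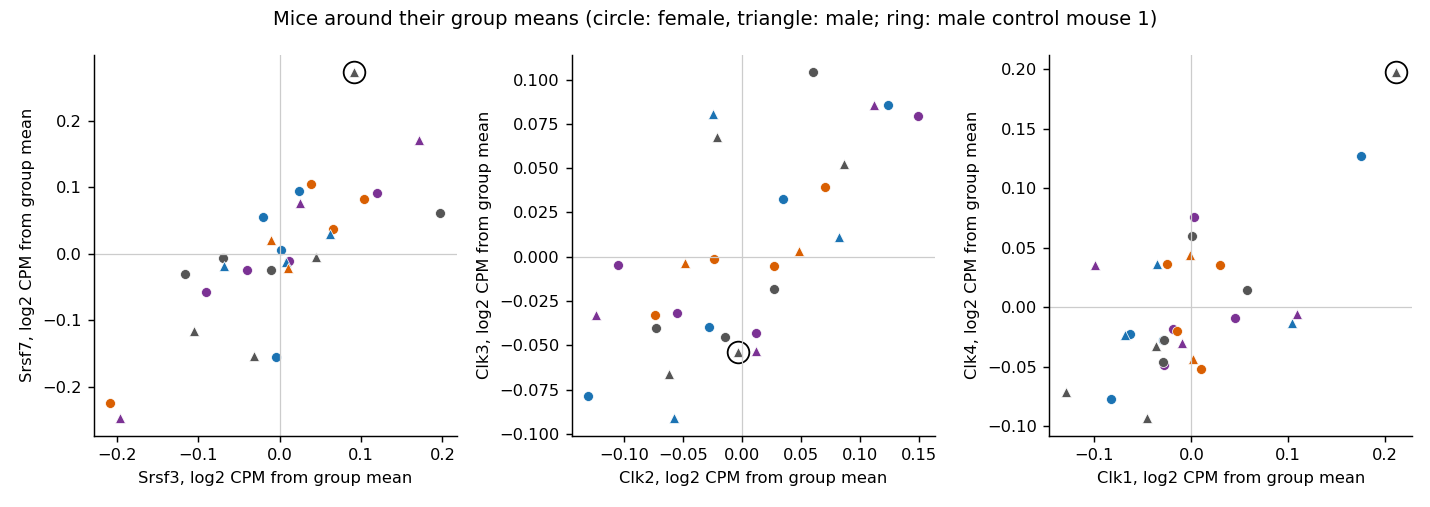
Deviation of each of the 28 mice from its group mean (log2 CPM on both axes) for Srsf3 and Srsf7, Clk2 and Clk3, and Clk1 and Clk4; circles are females, triangles males, colours the treatments, and the ring marks male control mouse 1. The points follow a line for the first 2 pairs (r = 0.78 and 0.68), whereas for Clk1 and Clk4 the ringed mouse and 1 PSD female lie far from the others.

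The genes whose log2 CPM was most like that of each gene over the 28 mice, among 18936 genes, are given as a description, since the mice share groups and libraries. For Clk1 they were AK017280 (r = 0.91) and Gm29766 (r = 0.87), and for Clk4 AK017280 (r = 0.84) and Fem1c (r = 0.83). AK017280 thus led for both Clk1 and Clk4. Clk2 was most like the spliceosome gene Prpf3 (r = 0.86) and Spg20 (r = 0.77), and Clk3 most like Hid1 (r = 0.71) and Tcf25 (r = 0.71). For Cirbp the nearest were Abtb1 (r = 0.79) and Znf512b (r = 0.77), and for Rbm3 D16Ertd472e (r = 0.79) and Impact (r = 0.79). Srsf3 was most like the SR-like gene Tra2b (r = 0.86) and Amd1 (r = 0.84). Srsf7 was most like Cbfb (r = 0.85) and Rundc1 (r = 0.85), and Srsf5 most like AK155141 (r = 0.80) and the histone gene H3f3b (r = 0.66).

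Few other genes of the splicing machinery were called. For the lists that follow, the share of all genes at an unadjusted p under 0.05 was 9.77% in females, 5.07% in males and 10.3% over all mice for restraint, 19.8%, 8.85% and 17.6% for PSD, and 20.2%, 17.4% and 25.5% for PSD + restraint. Of the 10 other SR and SR-like genes, 1 was called in any of the 9 comparisons with controls. This was Tra2a, which activates exons through purine-rich enhancers. It rose after PSD + restraint in males from 69.2 to 87.1 CPM, at a log2 fold change of 0.33 (SE 0.06, edgeR adjusted p = 0.0179), and was at 0.27 over all mice (edgeR adjusted p = 0.00311), under the fold limit. After PSD all 10 had log2 fold changes below 0 in females (median -0.16, all genes 0.01) and over all mice (median -0.09, all genes 0.01), and none was called, with 5 of the 10 at an unadjusted p under 0.05 in each. Srsf6 was at -0.14 (edgeR adjusted p = 0.0681) and Srsf11 at -0.11 (edgeR adjusted p = 0.0924) over all mice. In males after PSD, 5 of the 10 were below 0, with a median of -0.02.

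Of 12 other kinases of the SRPK, DYRK and HIPK families with Prpf4b, 11 were tested, and edgeR called none in the 9 comparisons. At an unadjusted p under 0.05 there were between 0 and 4 of them. The medians over all mice were -0.06 for restraint, -0.04 for PSD and -0.03 where PSD preceded restraint. Srpk3 was at 0.49 (edgeR adjusted p = 0.109) and Srpk1 at -0.16 (edgeR adjusted p = 0.165) after PSD. Of 19 genes of nuclear speckles and splicing cofactors none was called either, with 0 to 5 of them at an unadjusted p under 0.05, and the medians over all mice were -0.01, -0.02 and 0.00423. The RNA-binding protein gene Rbm6 was at -0.15 after PSD (edgeR adjusted p = 0.0472) and -0.17 after PSD + restraint (edgeR adjusted p = 0.00481), both under the fold limit. Of 20 hnRNP genes, which encode the nuclear proteins that often oppose SR proteins, none was called, with 1 to 5 at an unadjusted p under 0.05. Hnrnpa2b1 was at 0.22 after restraint (edgeR adjusted p = 0.0362) and Hnrnpll at 0.22 after PSD + restraint (edgeR adjusted p = 0.0189), under the fold limit.

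Among the targets of heat shock factor 1, 1 was called after restraint in females, 3 in males and 4 over all mice. They encode chaperones, and temperature and proteotoxic stress induce them through the factor. Of the 15 tested, all 15 had log2 fold changes above 0 after restraint in females (median 0.27, all genes 0.01) and over all mice (median 0.22, all genes 0.000555), and 14 of 15 in males (median 0.19). The 4 of 15 called over all mice, against 1.14% of all genes, were Hspa1a, Hspa1b, Dnajb1 and Bag3. Dnajb1, a co-chaperone of HSP70, rose from 41.8 to 76.1 CPM in females (log2 fold change 0.87, SE 0.16, edgeR adjusted p = 0.0174) and from 36.3 to 79.0 CPM in males (1.12, SE 0.15, edgeR adjusted p = 0.00709). Hspa1a and Hspa1b, the inducible HSP70 genes, rose in males by 2.41 (SE 0.39, edgeR adjusted p = 0.0177) and 2.46 (SE 0.39, edgeR adjusted p = 0.0177). These male values rest on the 2 restraint males, and neither gene was called in females. Fits without single mice were not read for the genes of the lists. Hspa1a and Hspa1b are near-identical copies whose reads the counting could split, so their separate values are uncertain. After PSD none of the 15 was called, the median was -0.16 over all mice and 12 of 15 were below 0, with 7 at an unadjusted p under 0.05. After PSD + restraint Dnajb1 and Bag3, a co-chaperone of the same system, rose in each sex, Bag3 by 1.06 (SE 0.21, edgeR adjusted p = 0.0137) in females and 0.94 (SE 0.17, edgeR adjusted p = 0.0141) in males. The comparisons with controls share the control mice, so that their values for a gene are not independent.

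**Figure D5:**
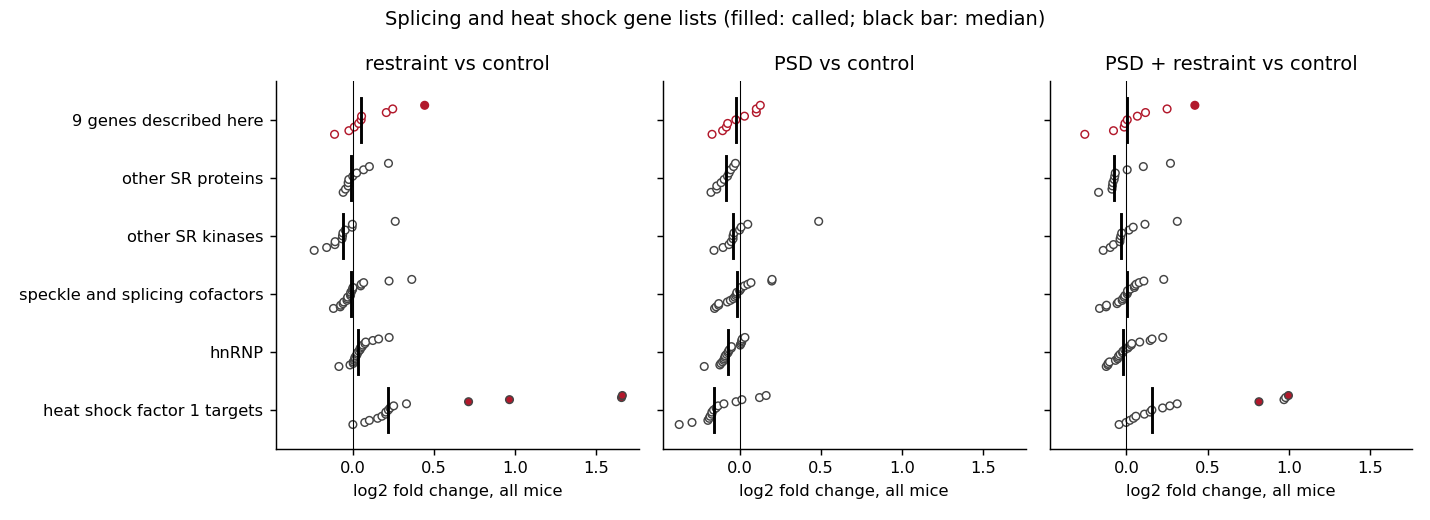
Log2 fold changes over all mice (horizontal axes) of the 9 genes, of the other SR and SR-like proteins, other SR kinases, speckle and splicing cofactors, hnRNP genes and heat shock factor 1 targets, for the restraint, PSD and PSD + restraint groups against home cage controls; each point is a gene, filled points are called and black bars are medians. Among the 5 further lists the filled points lie in the heat shock factor 1 targets, whose median is 0.22 after restraint and -0.16 after PSD.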

How the data were processed

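Pituitary RNA of 28 mice was sequenced as stranded, paired-end mRNA libraries. The authors aligned reads to mm10 with MapSplice 2.2.1 and assigned them to UCSC gene models with HTSeq 0.9.1, and the deposited counts are whole reads per gene and mouse without normalization. They tested genes with DESeq2 1.16.1. Multiply mapped reads and gene overlaps are therefore settled before the counts. A table of normalized counts that the authors deposited as well was not used here.

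Groups were taken from the sample labels. In R 4.3.3, edgeR 4.0.16 (TMM, filterByExpr, quasi-likelihood test) was fitted with PSD, restraint and their interaction within each sex, with sex added over all mice (18936 genes tested), and with 1 mean per group for sex differences. Calls needed a Benjamini-Hochberg adjusted p of 0.05 or less and a 1.25-fold change or more. CPM used TMM factors, and log2 CPM a prior count of 2. Correlations used 100000 shuffles of mice within groups, two-sided. All 9 genes are named. Of the gene lists, those called in a comparison with controls or among the 2 smallest p of their list could be named, and for likeness the 2 genes with the highest r. The genes, lists and tests were chosen with earlier results of these data known. All 37 pairs of mice within groups differed by more than counting noise (lowest chi-square per degree of freedom 7.48). Scripts were tested on simulated data. Alternatives were DESeq2 1.42.0, library size alone, other filters, no fold limit, only the groups compared, a replicate block, the neurointermediate lobe score as a covariate and each mouse left out. In the fits, p-values weigh a change against the spread between mice, estimated over all groups of the fit. Intervals of 95% come from the same fits.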

Additional observations from a re-analysis of the deposited data

How the results depend on the processing

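Counts of called genes that moved by over 1.5 times and calls of the 9 genes that changed are given here or beside the result, and the cause was not tested. With DESeq2 the genes called were 195 after restraint, 398 after PSD, 627 after PSD + restraint and 273 for PSD + restraint against PSD in females, and 99, 75 and 175 in males after restraint, after PSD and for PSD + restraint against PSD. Over all mice DESeq2 called 231 after PSD and 60 for PSD + restraint against restraint, and 24 and 10 for the sex differences after PSD and PSD + restraint. It called 1 of the 9 genes, Cirbp, in males for PSD + restraint against PSD. With library size alone the genes called were 1 after PSD in females, 28 in males for PSD + restraint against PSD, 77 over all mice after PSD and 9 against restraint. Clk1 was then not called in restraint males (0 of the 9 genes, adjusted p = 0.0705), and 7 correlated pairs passed in place of 2. At least 10 counts in every mouse gave 14 genes after PSD in females and 1 for the sex difference after PSD, and no filter gave 11 after PSD in males. Fits of only the groups compared gave 54 (restraint) and 0 (PSD) in females and 0 (PSD) in males, where Clk1 was not called after restraint (0 of the 9, adjusted p = 0.0759). The neurointermediate lobe score as a covariate gave 2 (PSD) and 56 (PSD + restraint) in females, 12 (PSD) and 113 (PSD + restraint against PSD) in males, 35 (PSD) and 11 (PSD + restraint against restraint) over all mice, and 2 and 3 for the sex differences after PSD and PSD + restraint. With it 2 of the 9 genes, Clk1 and Clk4, were called after PSD + restraint in females and over all mice and after restraint in males (Clk4 at 0.35, 0.32 and 0.33), Clk1 alone after PSD + restraint in males (1 of 9, 0.38, adjusted p = 0.0248), and 2 over all mice against PSD. Without the fold limit 2 of the 9 were called in females in each comparison with restrained mice, 2 over all mice after restraint and against PSD, 3 after PSD + restraint and 1 (Srsf7) between the sexes, with 2064, 586 and 6510 genes called after PSD + restraint, against PSD and between the sexes.

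Same-numbered mice of different groups did not deviate together (median correlations of -0.02 to 0.03, and 7 of 28 mice correlated best with their own number), so the numbers name mice and do not pair them. The replicate block gave 24 genes after PSD in females, 4, 2, 147 and 6 in males after restraint, PSD and PSD + restraint and against PSD, and 40 over all mice after PSD. Clk1 was not called in restraint males under the block (0 of the 9, 0.55, adjusted p = 0.135).

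Leaving out 1 mouse at a time gave 45 to 178 genes after restraint, 0 to 557 after PSD (557 without PSD female 4), 158 to 613 after PSD + restraint and 88 to 239 against PSD in females. In males it gave 19 to 63, 0 to 7, 162 to 528 and 3 to 92. Over all mice it gave 31 to 227 after PSD and 7 to 58 against restraint, and 0 to 4 and 0 to 2 for the sex differences after PSD and PSD + restraint. Of the 9 genes, 1 to 2 were called in females after PSD + restraint and against PSD (Rbm3 at 0.40 without PSD + restraint female 2), 0 to 2 (restraint) and 0 to 1 (PSD + restraint) in males, and 1 to 2 over all mice against PSD. Correlated pairs numbered 1 to 3. Of 46 member values with an unadjusted p under 0.05, none changed sign under any alternative tried, and of the other 116, which reached 0.10 in size where they did, 41 changed sign and none was called. Restraint males numbered 2, which limits every value that rests on them.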
